A study of Mus musculus with 6 samples.

Results

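Expression of 10 genes of glycolysis and glucose uptake was followed in white adipose tissue of the gonadal depot (gWAT) in mice fed 2 diets. This visceral pad lies next to the testis and its ducts. The genes were *Slc2a1*, which encodes the glucose transporter GLUT1, the hexokinases *Hk1*, *Hk2* and *Hk3*, the phosphofructokinases *Pfkl* and *Pfkp*, and *Aldoa*, *Pgk1*, *Pkm* and *Ldha*. They were picked by symbol through the NCBI gene identifiers of the deposited table, and all 10 were found among its 19790 genes. Wild-type C57BL/6 mice had received a normal chow diet (NCD, 3 mice) or a high-fat diet (HFD, 3 mice) for 8 weeks. The sample labels give an age of 6 weeks for the start of feeding, while the methods of the study give 8 weeks and state that the mice were male. RNA of the whole fat pad was sequenced, so adipocytes and all other cells of the depot contributed, and no allele or agent other than the diet differed between the groups. Each library came from 1 sample described as a biological replicate.

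Glycolysis turns glucose into pyruvate in the cytosol. GLUT1 admits glucose without need of insulin, whereas GLUT4 (*Slc2a4*) is the insulin-responsive transporter of adipocytes and muscle. Hexokinases trap glucose as glucose 6-phosphate, phosphofructokinase commits it to glycolysis, and lactate dehydrogenase converts pyruvate to lactate. In fat cells the same route supplies the glycerol backbone and part of the carbon of stored triglyceride, and in activated macrophages, which gather in the fat of obese mice, it is a main source of energy.

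Libraries held between 49575113 and 66360046 counts, and 15241 genes passed a filter on low counts and were tested. NCD replicate 1 stood apart from the other libraries. A set of 11 secretory genes of the seminal vesicle, a gland next to the gonadal fat, took 58.6% of its counts, 11.2% in NCD replicate 2 and 2.30% in NCD replicate 3, and held 2 to 8 counts in each HFD library. Smooth muscle markers (8 genes) summed to 6744 in NCD replicate 1 and to 258 to 826 in the other libraries, and epithelial markers (12 genes) to 2065 against 43.5 to 217. Adipocyte markers, all 12 of them counted in every library, were lowest there, at 6652 against 13121 to 34277. These sums and the levels of single genes below are in CPM, counts brought to a common library total, after scaling of the libraries by the trimmed mean of M-values (TMM), which sets the bulk of the genes level. The test of each of the 10 genes is therefore given for all 6 mice and again without NCD replicate 1.

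In the comparison of all 6 mice, *Hk3* was the single gene of the 10 that passed the test. Its level was 10.9-fold higher on HFD. The test was edgeR's quasi-likelihood test, with p-values adjusted by the Benjamini-Hochberg method over all 15241 genes and a threshold of 0.05. By that rule 1 of the 10 genes was called higher on HFD, where 5.58% of all tested genes were, and 0 were called lower, where 1.90% were. Without adjustment, 2 of the 10 had p under 0.05 (*Hk3* and *Hk2*), against 29.7% of all genes, and DESeq2 called *Hk3* higher and *Hk2* lower, where it called 14.1% and 11.5% of all genes. In the 5 mice left without NCD replicate 1, *Hk3* and *Hk1* rose, and *Hk2*, *Aldoa* and *Ldha* fell, which is 2 of 10 higher against 10.7% of all genes and 3 of 10 lower against 10.1%. The median log2 fold change of the 10 genes was -0.22 beside -0.08 for all genes, and -0.20 beside 0.02 without NCD replicate 1. In RNA of whole tissue, fewer cells of a type and less RNA per cell cannot be told apart.

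**Figure D1:**
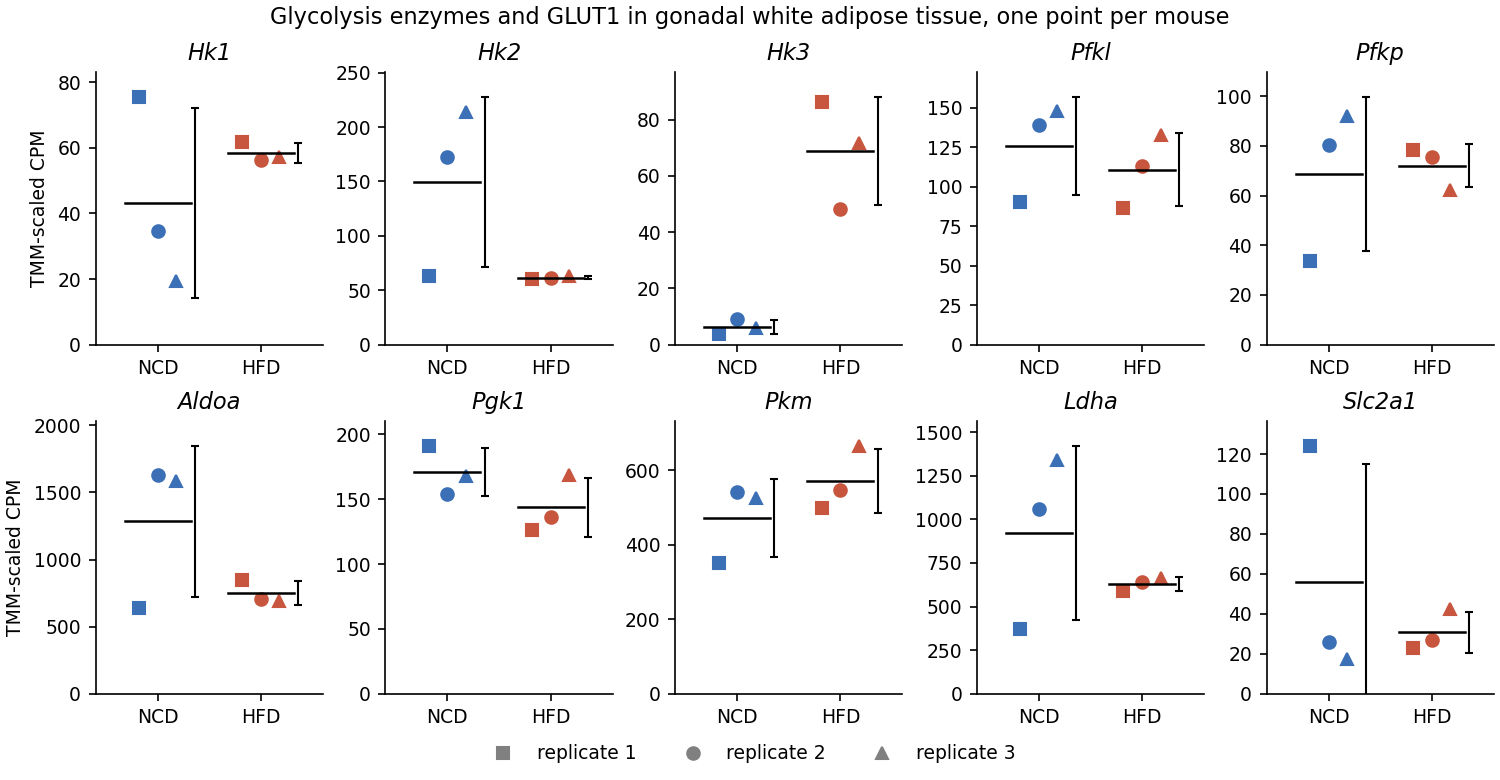
Level of each of the 10 genes in each mouse (y axis, TMM-scaled CPM, linear and starting at 0) by diet (x axis), with symbols for the replicate number, horizontal lines for the mean of 3 mice and bars for the SD, the SD bar of *Slc2a1* on NCD being drawn down to 0. *Hk3* is higher in every HFD mouse than in any NCD mouse, and NCD replicate 1 (blue square) is the lowest NCD mouse for *Hk2*, *Hk3*, *Pfkl*, *Pfkp*, *Aldoa*, *Pkm* and *Ldha* and the highest for *Hk1*, *Pgk1* and *Slc2a1*.

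*Slc2a1* (NCBI gene 20525, chr4:119108745-119137330, positions here and below in GRCm38) encodes GLUT1, the transporter of basal glucose uptake in many cell types. Its level was 124, 26.1 and 17.3 CPM on NCD and 22.9, 27.1 and 42.2 CPM on HFD, values for a diet being listed here and below in the order of replicates 1, 2 and 3. A single library, NCD replicate 1, lay far above the other 5, which overlapped between the diets. The log2 fold change was -0.86 ± 0.76 (SE, n = 3 per diet; 95% interval -2.70 to 0.99; edgeR adjusted p = 0.478), and without NCD replicate 1 its sign turned, to 0.52 ± 0.32 (interval -0.28 to 1.32; edgeR adjusted p = 0.291). Scaling by total counts alone also turned the sign, to 0.10. NCD replicate 1 was the library with the highest smooth muscle and epithelial marker sums given above, and the part of those cells in its *Slc2a1* level was not tested.

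The insulin-responsive transporter *Slc2a4* (GLUT4) had the other pattern over the NCD mice. It measured 68.9, 224 and 276 CPM on NCD and 79.1, 75.4 and 43.6 CPM on HFD, so that the lowest NCD mouse was within the HFD range. All 6 mice gave a log2 fold change of -1.52 (edgeR adjusted p = 0.125), and *Slc2a4* fell by 1.91 on the log2 scale without NCD replicate 1 (edgeR adjusted p = 0.0112). Divided by exon length (TMM-scaled CPM per kilobase, called FPKM here), GLUT1 and GLUT4 together reached 62.5, 87.9 and 104 FPKM on NCD and 35.2, 35.2 and 28.5 FPKM on HFD, which did not overlap. GLUT1 made up 60.7%, 9.10% and 5.11% of that sum on NCD and 20.0%, 23.6% and 45.4% on HFD. The HFD shares lay between NCD replicate 1 and the other NCD mice (difference 4.68 percentage points, 22.6 without NCD replicate 1; exact two-sided permutation test, p = 0.900, and 1.00 after adjustment over the 9 shares described with the hexokinases, n = 3 per diet).

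Among the hexokinases, *Hk3* was higher and *Hk2* lower in every HFD mouse than in any NCD mouse, while the call for *Hk1* depended on whether NCD replicate 1 was counted. Their start regions are shown because these 3 genes encode enzymes for the same step. The diet differences of the 3 were not tested against each other, nor for a link to these sequences. The 250 bases before each RefSeq start on GRCm38.p6 follow, all on the minus strand and written 5′ to 3′, with capitals for ACGTG or GCGTG on either strand, the core of the site bound by hypoxia-inducible factors (HIF). *Hk1* has starts at 2 places in RefSeq.
Hk1, upstream start, chr10:62379909-62380158: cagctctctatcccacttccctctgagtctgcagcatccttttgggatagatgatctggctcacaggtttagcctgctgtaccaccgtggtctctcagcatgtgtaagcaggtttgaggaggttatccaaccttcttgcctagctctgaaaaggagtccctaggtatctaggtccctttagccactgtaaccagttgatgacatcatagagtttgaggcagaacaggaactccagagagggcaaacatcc
Hk1, downstream start, chr10:62340422-62340671: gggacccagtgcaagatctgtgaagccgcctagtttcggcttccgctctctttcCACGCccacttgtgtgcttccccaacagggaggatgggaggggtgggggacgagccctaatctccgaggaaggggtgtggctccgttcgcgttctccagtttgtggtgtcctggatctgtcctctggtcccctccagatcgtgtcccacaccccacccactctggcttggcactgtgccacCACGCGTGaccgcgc
Hk2, chr6:82774455-82774704: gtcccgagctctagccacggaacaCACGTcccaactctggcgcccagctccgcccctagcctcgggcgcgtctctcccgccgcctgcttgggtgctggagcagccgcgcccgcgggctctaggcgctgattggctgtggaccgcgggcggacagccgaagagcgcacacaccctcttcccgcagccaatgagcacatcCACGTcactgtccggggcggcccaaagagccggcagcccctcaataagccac
Hk3, chr13:55021386-55021635: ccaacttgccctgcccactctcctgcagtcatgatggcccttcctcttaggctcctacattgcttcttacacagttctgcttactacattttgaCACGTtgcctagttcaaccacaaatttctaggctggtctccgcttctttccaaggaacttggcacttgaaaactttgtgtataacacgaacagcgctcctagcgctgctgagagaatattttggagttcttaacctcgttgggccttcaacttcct
The *Hk2* window was the richest in G and C (69.6%, with 25 CpG dinucleotides and 2 cores), and the *Hk3* window the poorest (47.2%, 6 CpG and 1 core). The upstream *Hk1* window had 49.6% G and C, 1 CpG and no core, and the downstream window 62.8%, 14 CpG and 3 cores. The medians over all 32851 RefSeq windows of this length were 52.4% and 6 CpG.

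*Hk3* (NCBI gene 212032, chr13:55005985-55021475) encodes the hexokinase found mainly in myeloid blood cells. It measured 3.93, 9.04 and 5.88 CPM on NCD and 86.4, 48.3 and 71.7 CPM on HFD. The lowest HFD mouse was several times above the highest NCD mouse, and both groups varied by less than the gap between them. *Hk3* rose by 3.45 ± 0.39 on the log2 scale (SE, n = 3 per diet; interval 2.50 to 4.40; edgeR adjusted p = 0.0212), and by 3.22 ± 0.34 without NCD replicate 1 (edgeR adjusted p = 0.00667). Leaving out any other mouse kept a log2 fold change of 3.26 to 3.80 but moved the edgeR adjusted p past the threshold. It was 0.0578 and 0.0706 without NCD replicates 2 and 3, and 0.0561, 0.0598 and 0.0971 without HFD replicates 1, 2 and 3. In those 5 fits edgeR called between 2 and 7 genes in all, against 1139 with all mice.

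*Hk2* (NCBI gene 15277, chr6:82725025-82774454) encodes the insulin-regulated hexokinase of muscle and fat. Its level was 63.1, 172 and 214 CPM on NCD and 60.8, 61.6 and 62.7 CPM on HFD. The HFD mice were nearly equal, and NCD replicate 1 was just above them. All 6 mice gave a log2 fold change of -1.28 ± 0.43 (interval -2.33 to -0.23; unadjusted p = 0.0243 and adjusted p = 0.116 by edgeR's quasi-likelihood test), while DESeq2 called *Hk2* lower (adjusted p = 0.0294). Without NCD replicate 1, *Hk2* fell by 1.63 ± 0.14 on the log2 scale, which is 3.10-fold (interval -1.97 to -1.30; edgeR adjusted p = 0.00544). Relative to the summed adipocyte markers of the same library, *Hk2* was 0.948%, 0.661% and 0.625% on NCD and 0.345%, 0.346% and 0.478% on HFD. The diets did not overlap in this ratio. Per 100 CPM of *Plin1*, the lipid droplet coat protein perilipin 1 and a single gene of that list, *Hk2* was 22.0, 13.4 and 17.3 on NCD and 10.3, 9.46 and 14.8 on HFD, which overlapped. Both ratios, in which the scaling of libraries cancels, were picked once the levels were known.

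*Hk1* (NCBI gene 15275, chr10:62268855-62379920) encodes the hexokinase that most tissues express at a steady level. It measured 75.5, 34.8 and 19.4 CPM on NCD, highest in the library with the most seminal vesicle RNA and lowest in the one with the least. On HFD it was 61.8, 56.3 and 57.1 CPM. The HFD mice lay inside the NCD range (log2 fold change 0.43 ± 0.47, interval -0.71 to 1.58; edgeR adjusted p = 0.563). Without NCD replicate 1 the diets no longer overlapped and *Hk1* rose by 1.12 ± 0.25 on the log2 scale (edgeR adjusted p = 0.0327), where 27.9% of all genes were higher in every HFD mouse than in both remaining NCD mice. The part of seminal vesicle RNA in the *Hk1* levels of NCD mice was not tested.

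Per exon length the sum of the 3 hexokinases overlapped between the diets, while the proportions of *Hk2* and *Hk3* did not. Their sum was 28.0, 40.6 and 43.9 FPKM on NCD and 49.3, 37.0 and 44.3 FPKM on HFD. *Hk2* made up 40.2%, 75.6% and 86.9% of that sum on NCD and 22.0%, 29.7% and 25.2% on HFD, and *Hk3* 4.19%, 6.65% and 3.99% on NCD and 52.2%, 38.9% and 48.3% on HFD. On average the share of *Hk2* was 42.0 percentage points lower and that of *Hk3* 41.5 points higher on HFD, and neither overlapped between the diets. Without NCD replicate 1 these differences were -55.7 and 41.2 points. The share of *Hk1* was 55.6%, 17.7% and 9.11% on NCD and 25.8%, 31.4% and 26.6% on HFD, a difference of 0.443 points that became 14.5 without NCD replicate 1. Exact two-sided permutation tests gave p = 0.100 for *Hk2* and for *Hk3*, the smallest value that 3 mice against 3 allow, and 0.300 after Benjamini-Hochberg adjustment over the 9 shares compared. A share within a library is unaffected by library scaling, and without division by length the *Hk3* difference was 32.8 points.

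**Figure D2:**
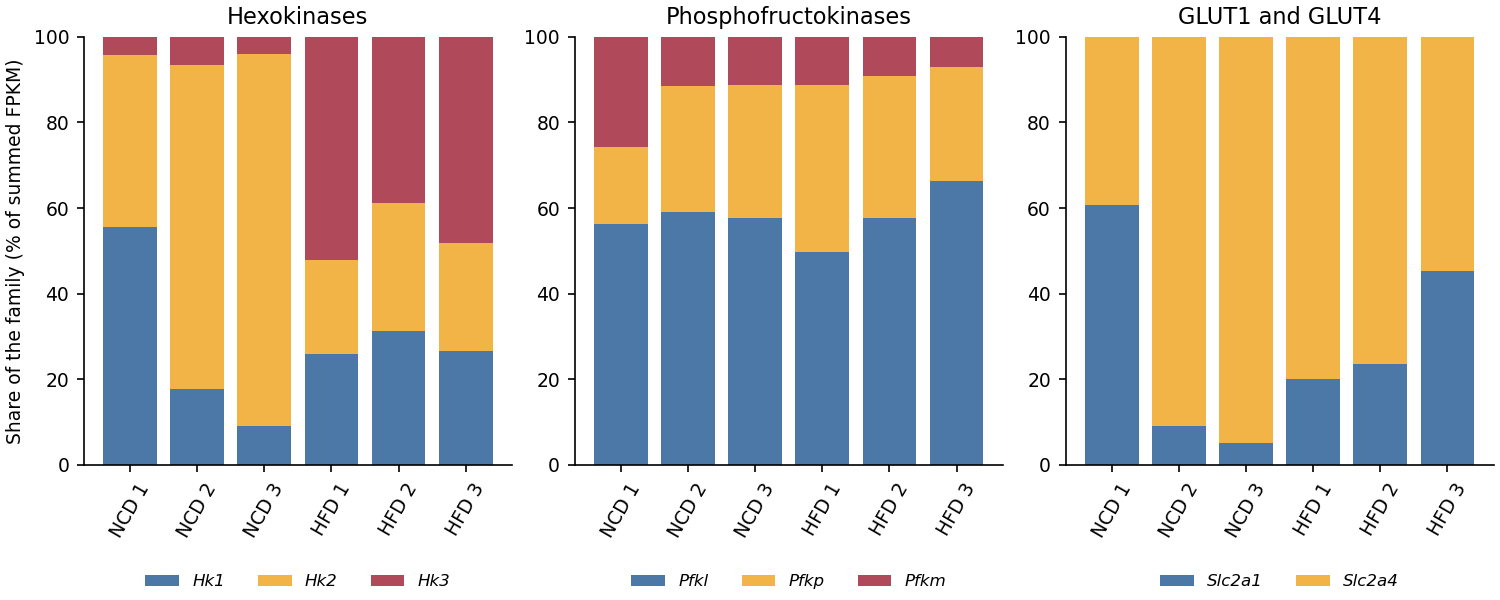
Share of each isozyme (y axis, percent of the FPKM summed over the family) in each mouse (x axis), for the hexokinases, the phosphofructokinases and the pair GLUT1 (*Slc2a1*) and GLUT4 (*Slc2a4*). *Hk3* takes 3.99% to 6.65% of the hexokinase sum in NCD mice and 38.9% to 52.2% in HFD mice, whereas the share of *Pfkl* stays between 49.7% and 66.2% in all 6 mice.

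The hexokinase of myeloid cells was read beside the macrophage markers of the same libraries. All 12 macrophage markers were counted in every library, 6 of them rose in the fit of all 6 mice and 10 without NCD replicate 1, and none fell in either (DESeq2 called 10 higher and 0 lower, and 10 had an unadjusted p under 0.05 in each edgeR fit). Their sum was 564 to 1259 CPM on NCD and 2879.8 to 4476 CPM on HFD, and it ordered the mice within each diet as *Hk3* did. Per 100 CPM of that sum, *Hk3* was 0.696, 0.718 and 0.525 on NCD and 1.93, 1.68 and 2.10 on HFD, so *Hk3* was higher on HFD by more than the list as a whole. Per 100 CPM of *Cd68*, a lysosomal protein of macrophages, *Hk3* was 19.5, 17.2 and 16.1 on NCD and 18.5, 20.3 and 25.7 on HFD, which overlapped. Per 100 CPM of *Adgre1* (F4/80) it was 15.4, 15.8 and 16.2 on NCD and 20.7, 22.9 and 30.8 on HFD, which did not. These ratios, too, were picked once the levels were known. Neutrophils also express *Hk3*, and their 8 markers summed to 4.41 to 9.80 CPM on NCD and 20.6 to 419 CPM on HFD, with *S100a9*, *Retnlg*, *Ly6g*, *Cxcr2* and *Mpo* at 0 in at least 1 library. Among the HFD mice, neutrophil markers were lowest in replicate 1, where *Hk3* was highest. The part of either cell type in the *Hk3* level was not tested.

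**Figure D3:**
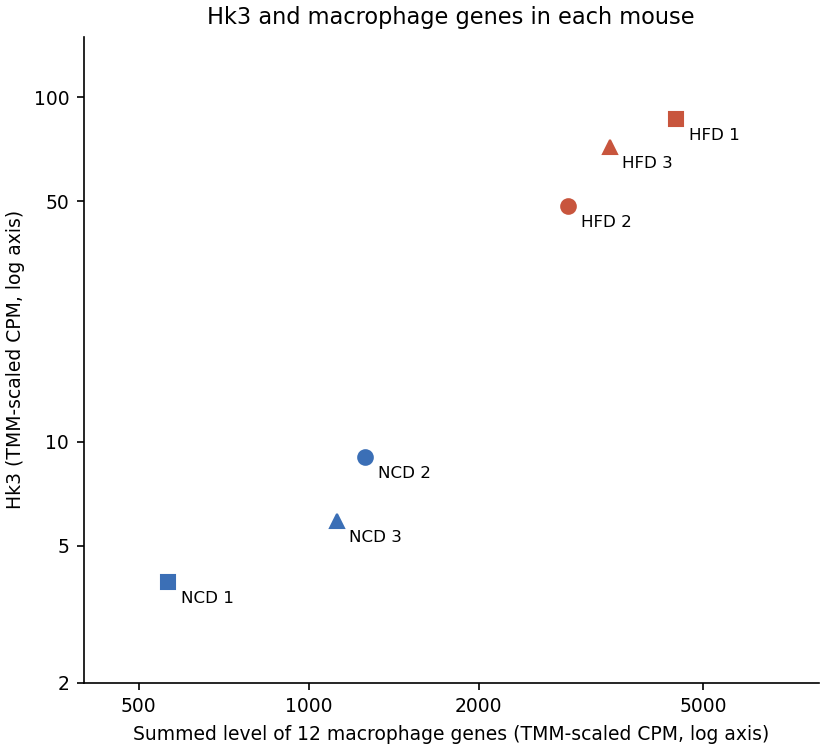
Level of *Hk3* (y axis, TMM-scaled CPM, log scale) against the summed level of 12 macrophage marker genes (x axis, TMM-scaled CPM, log scale), with 1 point per mouse and blue for NCD, red for HFD. The 3 HFD mice lie at 2879.8 CPM of macrophage markers or more and at 48.3 CPM of *Hk3* or more, above and to the right of the NCD mice.

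The genes whose log2 level followed *Hk3* most closely over the 6 libraries were *Ubd*, *Rab8b* and *Nckap1l* (Pearson r = 0.9995, 0.9994 and 0.9994). *Ubd*, a ubiquitin-like modifier induced by inflammatory cytokines, measured 1.22, 4.28 and 2.29 CPM on NCD and 69.9, 31.6 and 60.3 CPM on HFD. *Nckap1l*, which encodes the blood cell subunit Hem1 of an actin-regulating complex, measured 23.5, 45.6 and 31.8 CPM on NCD and 294, 172 and 225 CPM on HFD. *Rab8b*, a small GTPase of vesicle traffic, measured 32.3, 50.2 and 42.6 CPM on NCD and 195, 136 and 175 CPM on HFD. All 3 thus had HFD replicate 1 as the highest mouse and NCD replicate 1 as the lowest, like *Hk3*. With 6 libraries in separated groups, such values describe the order of these mice only.

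Phosphofructokinase makes fructose 1,6-bisphosphate, and *Pfkl* (NCBI gene 18641, chr10:77986947-78009807) and *Pfkp* (NCBI gene 56421, chr13:6579874-6649060) encode its liver and platelet forms. *Pfkl* measured 90.5, 139 and 148 CPM on NCD and 86.5, 113 and 133 CPM on HFD. *Pfkp* measured 33.5, 80.2 and 92.2 CPM on NCD and 78.3, 75.6 and 62.2 CPM on HFD. Both genes overlapped between the diets. The log2 fold change of *Pfkl* was -0.18 (interval -0.81 to 0.45; edgeR adjusted p = 0.667), and 0.25 with scaling by total counts. That of *Pfkp* was 0.07 (interval -0.84 to 0.98; edgeR adjusted p = 0.916), and -0.25 without NCD replicate 1. Without that mouse neither gene passed the test (edgeR adjusted p = 0.259 for *Pfkl* and 0.271 for *Pfkp*), and the interval of *Pfkl*, -0.86 to 0.15, still allowed a sizeable decrease.

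Among the 3 phosphofructokinase genes *Pfkl* was the main one per length in every mouse. It held 56.2%, 59.1% and 57.6% of the summed FPKM on NCD and 49.7%, 57.6% and 66.2% on HFD, and *Pfkp* held 18.1% to 31.1% on NCD and 26.8% to 39.1% on HFD. The muscle form *Pfkm* held 25.8%, 11.4% and 11.3% on NCD and 11.2%, 9.15% and 7.07% on HFD, a difference of -7.02 percentage points without overlap (exact permutation p = 0.100, adjusted over the 9 shares 0.300). Without NCD replicate 1 it was -2.21 points. Skeletal muscle markers summed to 411 CPM in NCD replicate 1 and to 3.73 to 42.5 CPM elsewhere, with *Myh1*, *Myh4*, *Tnnc2* and *Atp2a1* at 0 in at least 1 library. Their part in the *Pfkm* share was not tested.

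*Aldoa* (NCBI gene 11674, chr7:126795234-126800994), which encodes the aldolase that splits fructose 1,6-bisphosphate, was the most abundant of the 10 per length. Its level was 635, 1628 and 1589 CPM on NCD and 851, 708 and 688 CPM on HFD. NCD replicates 2 and 3 lay far above the HFD mice and NCD replicate 1 below them. The log2 fold change was -0.78 ± 0.42 in all 6 mice (interval -1.81 to 0.25; edgeR adjusted p = 0.269). Without NCD replicate 1, *Aldoa* fell by 1.09 ± 0.20 on the log2 scale, which is 2.13-fold (edgeR adjusted p = 0.0179). The related *Aldoc* was at 0.465 to 3.74 CPM, and *Aldoa* held at least 99.6% of their summed FPKM in every mouse.

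*Pgk1* (NCBI gene 18655, chrX:106187100-106203699) encodes phosphoglycerate kinase, the first ATP-forming step. It measured 191, 154 and 168 CPM on NCD and 126, 136 and 169 CPM on HFD, with overlap in HFD replicate 3. The log2 fold change was -0.25 ± 0.19 (interval -0.70 to 0.20; edgeR adjusted p = 0.400), -0.15 without NCD replicate 1 (edgeR adjusted p = 0.568), and 0.30 with scaling by total counts. *Pgk1* varied least between mice of the 10 genes on NCD in relation to its mean (SD 18.7 CPM on a mean of 171 CPM, n = 3).

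*Pkm* (NCBI gene 18746, chr9:59656576-59679372) encodes the pyruvate kinases M1 and M2, which arise by alternative splicing and which counts per gene do not separate. Its level was 351, 541 and 525 CPM on NCD and 498, 547 and 665 CPM on HFD, and the diets overlapped. The log2 fold change was 0.27 ± 0.27 (interval -0.37 to 0.91; edgeR adjusted p = 0.522), and 0.11 ± 0.19 without NCD replicate 1 (interval -0.36 to 0.59; edgeR adjusted p = 0.704). Those intervals leave room for a moderate difference either way.

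*Ldha* (NCBI gene 16828, chr7:46842274-46855627) encodes the lactate dehydrogenase subunit that favours lactate formation. It measured 370.4, 1058 and 1339 CPM on NCD and 588, 639.6 and 663 CPM on HFD. As with *Aldoa*, NCD replicates 2 and 3 were above every HFD mouse and NCD replicate 1 below. The log2 fold change was -0.55 ± 0.48 (interval -1.72 to 0.62; edgeR adjusted p = 0.472), and without NCD replicate 1 *Ldha* fell by 0.91 ± 0.20 (interval -1.40 to -0.43; edgeR adjusted p = 0.0283). *Ldha* held 91.5% to 95.1% of the FPKM summed with *Ldhb* on NCD and 94.2% to 96.2% on HFD. Relative to the adipocyte marker sum, *Ldha* was 5.57%, 4.06% and 3.91% on NCD and 3.34%, 3.60% and 5.05% on HFD, and *Aldoa* 9.54%, 6.25% and 4.64% on NCD and 4.83%, 3.98% and 5.24% on HFD. Both ratios overlapped between the diets, as they did per 100 CPM of *Plin1*. The adipocyte marker sum was 26051 and 34277 CPM for NCD replicates 2 and 3, against 13121 to 17783 CPM for the HFD mice, and without NCD replicate 1, 6 of the 12 fell, *Slc2a4* being one of them, and none rose in edgeR. The part of adipocyte RNA in the falls of *Hk2*, *Aldoa* and *Ldha* was not tested.

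**Figure D4:**
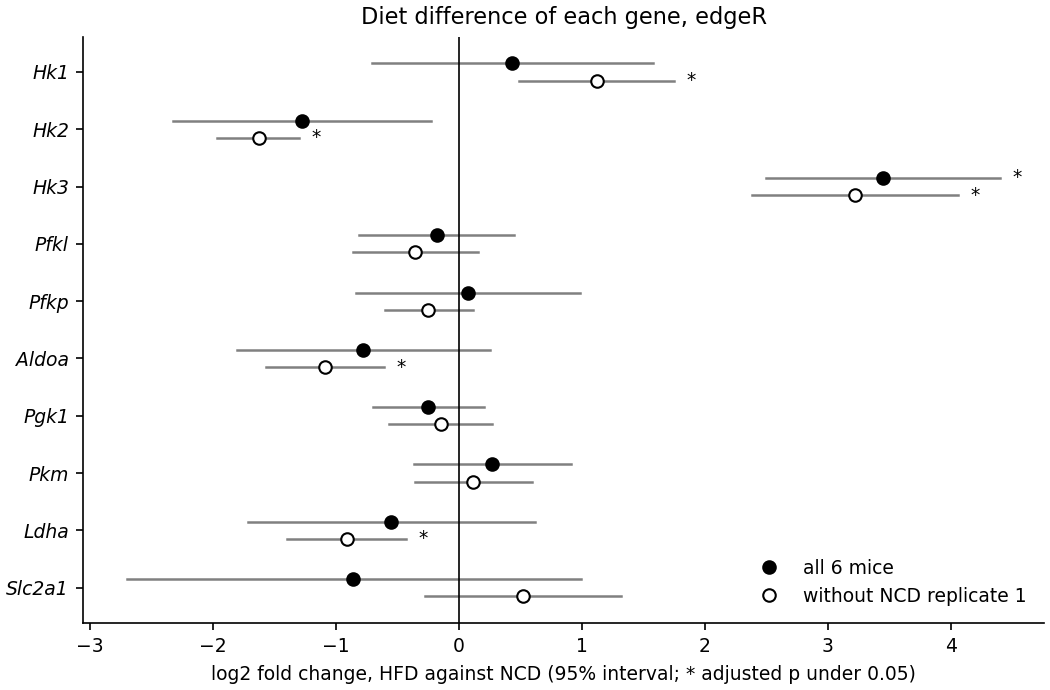
Log2 fold change of each gene, HFD against NCD (x axis), with its 95% interval from edgeR, for all 6 mice (filled) and without NCD replicate 1 (open), an asterisk marking an adjusted p under 0.05. *Hk3* is marked in both fits, while *Hk1*, *Hk2*, *Aldoa* and *Ldha* are marked only without NCD replicate 1, where their intervals are narrower.

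Counted by mice, *Hk3* was higher and *Hk2* lower in every HFD mouse than in any NCD mouse, which is 1 of the 10 genes in each direction where 20.5% and 18.7% of all genes did so. Without NCD replicate 1, *Hk1* and *Hk3* were higher without overlap (2 of 10, against 27.9% of all genes), and *Hk2*, *Pfkl*, *Pfkp*, *Aldoa* and *Ldha* lower (5 of 10, against 29.1% of all genes). The summed share of all 10 genes among the counts was 0.0960%, 0.393% and 0.441% in NCD replicates 1 to 3 and 0.285%, 0.303% and 0.331% in HFD replicates 1 to 3. These are shares of all counts, and seminal vesicle genes took 58.6% of those in NCD replicate 1. In TMM-scaled CPM the 10 genes summed to 1938, 3843 and 4118 on NCD and to 2459, 2413 and 2614 on HFD.

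The order of the genes by level per exon length was stable at the top and changed among the hexokinases. *Aldoa*, *Ldha*, *Pkm* and *Pgk1* took ranks 1 to 4, in this order, in all 6 mice, with means of 704 ± 308, 487 ± 263, 182 ± 40.5 and 93.6 ± 10.3 FPKM on NCD and 411 ± 48.6, 333 ± 20.2, 219 ± 33.0 and 78.7 ± 12.4 FPKM on HFD (SD, n = 3). Although *Aldoa* exceeded *Ldha* within each mouse, their ranges over mice overlapped on NCD. *Pfkl* followed at rank 5 or 6 in every mouse. *Aldoa*, *Pgk1*, *Pkm* and *Ldha* have processed pseudogenes, and the sources used here do not state how reads shared with them were assigned. *Hk3* was rank 10 in each NCD mouse and rank 5, 7 and 6 in HFD replicates 1, 2 and 3, where its range of 14.4 to 25.8 FPKM overlapped those of its neighbours *Pfkl* and *Pfkp*. *Hk2* was rank 8, 6 and 6 on NCD and 9, 9 and 10 on HFD, at 10.8 to 11.2 FPKM. On HFD *Hk1*, at 11.6 to 12.7 FPKM, was above *Hk2* in every mouse, and *Slc2a1*, at 7.03 to 12.9 FPKM, overlapped both.

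Other genes of the pathway were counted by direction in lists. The shares over all tested genes stand beside each list here and below. With all 6 mice edgeR called 5.58% higher and 1.90% lower, and 29.7% had an unadjusted p under 0.05. Without NCD replicate 1 it called 10.7% higher and 10.1% lower, and DESeq2 with all mice 14.1% and 11.5%. Of 12 tested glycolysis enzymes outside the 10, *Eno2*, an enolase, rose (log2 fold change 1.29, edgeR adjusted p = 0.0360) and none fell, while 4 had an unadjusted p under 0.05 in edgeR and DESeq2 called 1 higher and 2 lower. It measured 3.17, 3.38 and 4.50 CPM on NCD and 10.4, 8.12 and 8.57 CPM on HFD, which did not overlap. With NCD replicate 1 left out, 14 could be tested, *Eno2* rose and 5 fell. Among those was *Gapdh*, the dehydrogenase between aldolase and *Pgk1*, at 306, 722 and 715 CPM on NCD and 346, 329 and 340.3 CPM on HFD (log2 fold change -1.07, edgeR adjusted p = 0.00931). *Tpi1* (-0.58), *Pfkm* (-0.68) and *Ldhb* (edgeR adjusted p = 0.0179) also fell. *Bpgm*, which makes 2,3-bisphosphoglycerate, fell by 2.16 and had 1341, 129 and 38.0 CPM on NCD, in the order of the seminal vesicle share, and 16.2 to 21.6 CPM on HFD.

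Regulators of glycolysis held no called gene among 11 tested in all 6 mice, 2 having an unadjusted p under 0.05 in edgeR, and DESeq2 called 2 lower. In the 5-mouse fit *Pfkfb4* rose by 1.00 (edgeR adjusted p = 0.0499, and 0.536 in all 6 mice), and *Pfkfb1* (-1.63), *Pfkfb2* (-0.66) and *Mlxipl* (-1.86) fell. *Pfkfb4* measured 51.8, 26.2 and 16.5 CPM on NCD and 44.8, 33.0 and 48.7 CPM on HFD. *Pfkfb2* measured 132, 41.9 and 38.5 CPM on NCD and 24.8, 26.1 and 24.8 CPM on HFD. On NCD both followed the order of the seminal vesicle share, and the part of that RNA in their levels was not tested. *Mlxipl* encodes ChREBP, the glucose-sensing activator of lipogenic genes, and the *Pfkfb* genes encode the enzymes that set the phosphofructokinase activator fructose 2,6-bisphosphate. Of 10 other sugar transporters, 2 fell in all 6 mice, 7 had an unadjusted p under 0.05 in edgeR, and DESeq2 called 2 higher and 5 lower. *Slc2a13*, a proton-coupled inositol transporter, had 9.71, 28.2 and 37.3 CPM on NCD and 3.22, 4.11 and 1.80 CPM on HFD (edgeR adjusted p = 0.0369). The fructose transporter *Slc2a5* had 2.10, 2.89 and 4.13 CPM on NCD and was at 0 in HFD replicates 1 and 2 and 0.0797 CPM in HFD replicate 3 (edgeR adjusted p = 0.0320). When NCD replicate 1 was left out, *Slc2a9* rose, and *Slc2a4* and *Slc2a8* fell beside them.

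Genes for the fate of pyruvate held the largest rise of the pathway lists after *Hk3*. *Pdk4*, the kinase that switches off pyruvate dehydrogenase, measured 14.0, 33.7 and 22.4 CPM on NCD and 273, 129 and 183 CPM on HFD (log2 fold change 3.06, edgeR adjusted p = 0.0228). *Pdha1*, the catalytic subunit of that complex, fell from 387, 649 and 799 CPM to 194, 188 and 163 CPM (-1.75, edgeR adjusted p = 0.0322), and the phosphatase gene *Pdp2* fell by 1.95. Of 17 tested genes, 1 thus rose and 2 fell, and without NCD replicate 1, 1 rose and 8 fell, the mitochondrial pyruvate carrier genes *Mpc1* (-2.22) and *Mpc2* (-2.15), *Pdhb* (-2.34), *Dlat* (-1.63) and *Pdhx* (-1.40) among them. With all 6 mice, 11 of the 17 had an unadjusted p under 0.05 in edgeR, and DESeq2 called 1 higher and 7 lower. The median log2 fold change of the list was -1.05 in all 6 mice and -0.62 without NCD replicate 1.

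Branches that leave glycolysis held 3 falls and 1 rise in the fit of all 6 mice. Of 7 pentose phosphate genes *Tkt*, transketolase, fell by 2.59 (edgeR adjusted p = 0.0495), from 537, 1586 and 2095 CPM to 317, 198 and 184 CPM, and 5 of 7 fell without NCD replicate 1. With all 6 mice, 4 of the 7 had an unadjusted p under 0.05 in edgeR, and DESeq2 called 0 higher and 4 lower. Of 16 tested genes of glycogen and gluconeogenesis, the branching enzyme *Gbe1* fell by 2.55 and the phosphorylase *Pygb* by 1.30, and *Pgm2* rose by 1.15. Among these 16, 9 had an unadjusted p under 0.05 in edgeR, and DESeq2 called 1 higher and 7 lower. In the fit without NCD replicate 1, 8 of 17 fell, glycogen synthase *Gys1* (-1.76) and pyruvate carboxylase *Pcx* (-3.02) among them, and *Pgm2* rose.

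Target genes of HIF outside glycolysis were listed because several of the 10 genes are known HIF targets. Of 18 tested, 4 rose and none fell in edgeR, 5 had an unadjusted p under 0.05, and DESeq2 called 5 higher and 0 lower. Over all tested genes edgeR called 5.58% higher and 1.90% lower, 29.7% had an unadjusted p under 0.05, and DESeq2 called 14.1% and 11.5%. *Adm* (adrenomedullin) rose by 0.78 and *P4ha1* (a collagen prolyl hydroxylase) by 1.12 on the log2 scale. *Car9* (a carbonic anhydrase) rose by 2.26 and *Hmox1* (haem oxygenase) by 2.34. *P4ha2* (0.68) was added to them without NCD replicate 1 and *Higd1a* (-0.97) then fell. Of the 10 genes, *Slc2a1*, *Pgk1*, *Pkm*, *Pfkl* and *Pfkp* passed edgeR's test in neither fit, and *Hk3* rose in both. Only without NCD replicate 1 did edgeR call *Hk1* higher and *Hk2*, *Aldoa* and *Ldha* lower. The median of the list was 0.13 in all 6 mice, beside -0.22 for the 10 genes, and 0.46 without NCD replicate 1, beside -0.20. Macrophage marker sums, given above, were higher in the same mice, and their part in these rises was not tested. None of the genes named from these lists passed the test when any mouse other than NCD replicate 1 was left out.

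**Figure D5:**
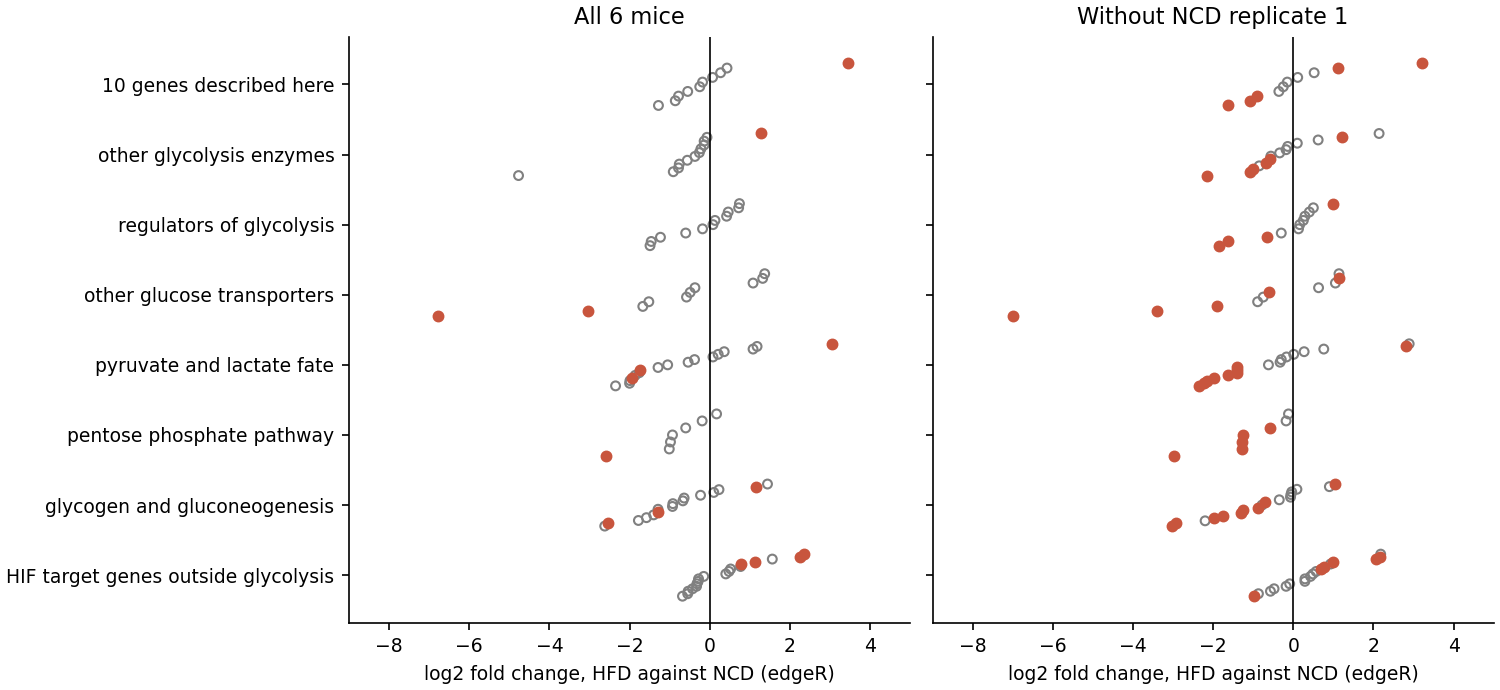
Log2 fold change, HFD against NCD (x axis), of every tested gene of the 10 genes and of 7 lists around glycolysis (rows), in all 6 mice (left) and without NCD replicate 1 (right), filled red where the edgeR adjusted p was under 0.05; the height of a point within its row only separates points. *Hk3* is the rightmost point of the 10 genes in both panels, and the fitted value of *Slc2a5* at the far left depends on the handling of libraries with no count.

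Sequences before the starts of the 10 genes, which the choice of genes had not used, were searched for short motifs. RefSeq gave 15 windows of 250 bases for the 10 genes, and 12 of them, with at least 1 for each gene, held ACGTG or GCGTG on either strand, as 38.6% of all 32851 windows did. ACGTG alone was in 8 of the 15 windows, against 16.6% of all, and GCGTG in 5, against 28.2%. Both cores contain a CpG, of which the median over all windows was 6. The upstream windows of *Aldoa* and *Hk1* and that of *Hk3* held 0, 1 and 6 CpG. The others held 9 to 25, where 62.2% of all windows had at most 9 and 90.4% at most 25. The comparison with all windows was not matched for CpG content. The 2 lower windows of *Aldoa* overlap each other, and a gene with several starts had more chances to hold the motif. The E-box CACGTG, which contains ACGTG, was in 1 window, at the upstream start of *Ldha*, against 6.02% of all. It is the only one of the 15 whose bases just after the start were found in no GENCODE vM21 transcript of the gene. TATAAA was in 0 of the 15 against 12.4% of all, GAGGAAGT in 0 of the 15 against 2.44%, and GGGCGG, the GC box, in 8 of the 15 against 32.7%. These matches describe letters in a window of fixed length and not bound sites.
The window of *Ldha* with the most cores, 5 by count of overlapping matches, and that of *Slc2a1*, with 2, are given for comparison with the hexokinases, both on the plus strand.
Ldha, upstream start, chr7:46845554-46845803: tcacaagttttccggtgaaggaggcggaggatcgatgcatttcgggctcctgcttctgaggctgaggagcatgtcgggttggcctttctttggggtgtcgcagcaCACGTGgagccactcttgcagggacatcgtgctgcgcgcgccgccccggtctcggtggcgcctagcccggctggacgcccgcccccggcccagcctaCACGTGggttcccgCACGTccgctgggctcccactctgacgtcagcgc
Slc2a1, chr4:119108495-119108744: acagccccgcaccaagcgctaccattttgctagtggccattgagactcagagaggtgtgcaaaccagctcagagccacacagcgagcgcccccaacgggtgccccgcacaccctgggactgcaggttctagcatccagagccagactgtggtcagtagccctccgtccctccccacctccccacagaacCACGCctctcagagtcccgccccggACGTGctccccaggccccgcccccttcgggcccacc
Each of the 10 genes had at least 1 window with a core, so its presence could not set genes with a diet difference apart.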

How the data were processed

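RNA of gWAT from 3 NCD and 3 HFD mice was sequenced after TruSeq library preparation. The table the authors deposited gives read counts that were not normalized, with NCBI gene identifiers and a column for each mouse. The submitters' processing notes name bcl2fastq 2.20.0, Trimmomatic, HISAT2 2.1.0, StringTie 1.3.4d, DESeq2 and the build mm10 (GRCm38). Which tool made the counts, the annotation and the strand setting were not stated in the sources used here. The column of HFD replicate 3 is numbered 4 in its name, as in that sample's label, and 0 columns lacked a sample.

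Of 19790 identifiers, 19742 were paired with a symbol (NCBI, GRCm38.p6), and the other 48 held 0.629% of the counts. Exon lengths were those of the GENCODE vM21 basic transcripts, found for 17794 genes, and the authors' lengths may differ. Genes with few counts were removed by filterByExpr (at least 10 counts and a total of 15), libraries were scaled by TMM, and edgeR 4.0.16 (R 4.3.3, limma 3.58.1) fitted glmQLFit and glmQLFTest, with Benjamini-Hochberg adjustment at 0.05. Standard errors were the absolute log2 fold change over the root of F. The common biological coefficient of variation was 0.424, and 0.288 without NCD replicate 1. Depth was 49575113 to 66360046 counts, so that 1 count was worth 0.0120 to 0.0304 TMM-scaled CPM and the spread between mice, not counting error, limits the precision for the 10 genes. The mice are called biological replicates, and their pairs within a diet differed by much more than counting would give (chi-square over its degrees of freedom, 111 to 3440), so none was counted as a duplicate. Promoter windows came from RefSeq (GRCm38.p6), where all 10 genes matched.

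The 10 genes, the gene lists and the tests were chosen with earlier results of these data known. The 10 genes are named throughout. Of the other lists, genes past the threshold with all mice or without NCD replicate 1 are named, as are the isozymes paired in the shares, and for *Hk3* the 3 genes of highest correlation of log2(CPM + 0.5). Alternatives were no low-count filter, median-of-ratios scaling, total counts alone, removal of the 11 seminal vesicle genes, DESeq2 1.42.0, a block for the replicate number, omission of each mouse, and values not divided by length. The procedure was also run on simulated data. All simulated libraries shared a single mean profile apart from planted changes, so the effect of a library like NCD replicate 1 was not covered. Some genes are not reported here and were left out of the lists and their counts. Figures were drawn with matplotlib 3.10.9.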

Additional observations from a re-analysis of the deposited data

How the results depend on the processing

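Direction held for *Hk1*, *Hk2*, *Hk3*, *Aldoa*, *Pkm* and *Ldha* under all 12 alternatives, with log2 fold changes of 0.11 to 1.19, -1.63 to -0.92, 3.22 to 3.85, -1.09 to -0.42, 0.11 to 0.71 and -0.91 to -0.17. The median of all genes was -0.08 and moved to 0.44 with total counts alone, where *Pfkl* (0.25), *Pgk1* (0.30), *Slc2a1* (0.10), *Tpi1* (0.04) and *Aldoc* (0.33) turned sign. Relative to that median, *Pfkl*, *Pgk1* and *Slc2a1* stayed negative, at -0.19, -0.15 and -0.35. With 1 mouse left out in turn, *Pfkp* ranged from -0.25 to 0.35, *Slc2a1* from -1.26 to 0.52 and *Aldoc* from -0.99 to 0.62, the turned sign being that without NCD replicate 1. *Hk3* kept its call in 6 of the 12 alternatives (adjusted p 9.33e-15 with DESeq2 to 0.0971).

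Leaving out 1 mouse gave 0 to 2 of the 10 genes called higher and 0 to 3 lower, 0 to 10 genes of the 7 other lists (context genes) higher and 0 to 34 lower, and 2 to 3234 genes in all. These calls numbered 1 and 0, 7 and 7, and 1139 with all mice. DESeq2 called 1 of the 10 genes lower, 27 context genes lower and 3904 genes in all. With no low-count filter 5 context genes were higher and 4 lower, and with total counts 3 and 2. The cause of these differences was not tested.

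The replicate numbers did not pair the mice (correlations of deviations -0.056, -0.046 and 0.01, and no mouse correlated best with its own number). With the replicate block 0 of the 10 genes were called (*Hk3* 3.49, adjusted p = 0.0675), 0 context genes in either direction and 12 genes in all.

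Leaving out 1 mouse, the share difference, HFD minus NCD, ranged from -8.74 to 14.5 points for *Hk1*, from -3.98 to 4.24 for *Pfkl*, from -0.0686 to 0.103 for *Aldoa* and from -5.26 to 22.6 for *Slc2a1*, and so had no settled sign. Without division by length it was 32.8 for *Hk3* and -1.12 for *Pfkl*. *Aldoa* was the highest of the 10 genes in 6 of 6 mice with and without length.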
